A study of Mus musculus with 6 samples.

Results

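The 10 genes described here mark hematopoietic stem and progenitor cells (HSPCs), and they were followed in RNA-seq data of transplanted mouse bone marrow (BM) cells. They were chosen by name and found by Ensembl identifier among the 24965 genes of the deposited table, where all 10 of 10 were present. Kit, Cd34, Flt3, Procr and Slamf1 encode proteins of the cell surface, and Mecom, Hlf, Meis1, Hoxa9 and Hoxb4 encode transcription factors. The donors were Hemgn-/- mice, which carry a whole-body disruption of Hemgn made with zinc finger nucleases, or wild-type (WT) mice, all C57BL/6 (CD45.2+). The study's methods give ages from 8 to 10 weeks, both sexes and littermates as controls. The recipients of both groups were CD45.1+ mice irradiated with 9 Gy, split into doses of 4.5 Gy. By the labels, donor cells were sorted 6 h after bone marrow transplantation (BMT), with 3 libraries for each genotype, which the methods call biological replicates. How many recipients went into 1 library is not given in the sources used here. Since Hemgn was disrupted in every tissue of the donors, the disruption was carried by all donor cells of the knockout group, stem cells and mature cells alike.

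Hematopoietic stem cells (HSCs) sit at the top of the blood hierarchy and are enriched by sorting marrow cells that lack mature lineage antigens (Lin-) and carry Sca-1 and c-Kit, the LSK gate. KIT and FLT3 are receptor tyrosine kinases that pass survival and growth signals from stem cell factor and FLT3 ligand. CD34 and FLT3 appear as mouse stem cells become multipotent progenitors, whereas EPCR (Procr) and CD150 (Slamf1) are used to enrich long-term HSCs. MECOM, HLF, MEIS1, HOXA9 and HOXB4 are transcription factors of the stem cell state, and MEIS1 binds DNA together with HOX proteins. None of these genes is exclusive to stem cells. Kit is also expressed by mast cells, Cd34 by endothelial and mast cells, Flt3 by dendritic cells, Procr by endothelium, and Slamf1 by lymphocytes and dendritic cells.

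The sources differ on the gate. The study's methods and design text describe LSK cells, whereas the sample labels name donor cells gated as Lin-Sca-1+ and leave c-Kit out. The values are FPKM, fragment counts divided by transcript length and by the depth of the library, so that genes can be set side by side within a library. Depth recovered from the steps between low values was 23668011 to 27716581 fragments in WT against 26175070 to 28897360 fragments in Hemgn-/- libraries.

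Set against the sort, the identity genes were low, and transcripts of mature blood cells were far more abundant in all 6 libraries. Kit, the gene of the gate's own antigen c-Kit, lay between 5.50 and 7.24 FPKM. Ly6a, which encodes Sca-1, lay between 8.27 and 17.3 FPKM. The lineage cocktail removes cells that carry antigens such as CD11b, Gr-1, B220, CD3, CD4 and CD8, yet several of the matching genes were far above Kit. Ly6g, which encodes the Gr-1 antigen of neutrophils, lay between 250 and 434 FPKM, or 45.4 to 68.2 times Kit in the same library. Itgam, which encodes CD11b, was 8.49 to 11.4 times Kit. Ptprc, the gene of CD45 from which B220 is spliced, lay between 87.1 and 113 FPKM, but all white blood cells express it. Of the 13 genes of these antigens, 8 had a mean above that of Kit. In single libraries 7 or 8 of them were above Kit, and 6 to 8 were above Cd34. Ly6c1, at 0.304 to 1.74 FPKM, was below Kit in every library. Of the T cell antigens, Cd3d at 7.99 to 24.1 FPKM and Cd8b1 at 13.9 to 21.2 FPKM were above Kit in all 6 libraries. Cd8a, at 6.58 to 8.18 FPKM, was above Kit in all but WT replicate 3. Cd3e (1.59 to 2.93 FPKM), Cd3g (1.63 to 3.11 FPKM) and Cd4 (2.37 to 5.11 FPKM) were below Kit in every library. For the neutrophil antigens Ly6g and Itgam, and for Cd3d and Cd8b1, the order beside Kit was the reverse of the one the gate selects for. The transcript levels of all 6 libraries were not those of a population free of lineage-positive cells, which both gates require. What share of the cells was of the population that either gate names cannot be told from these values. The levels and differences given here are those of the libraries as labelled.

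**Figure D1:**
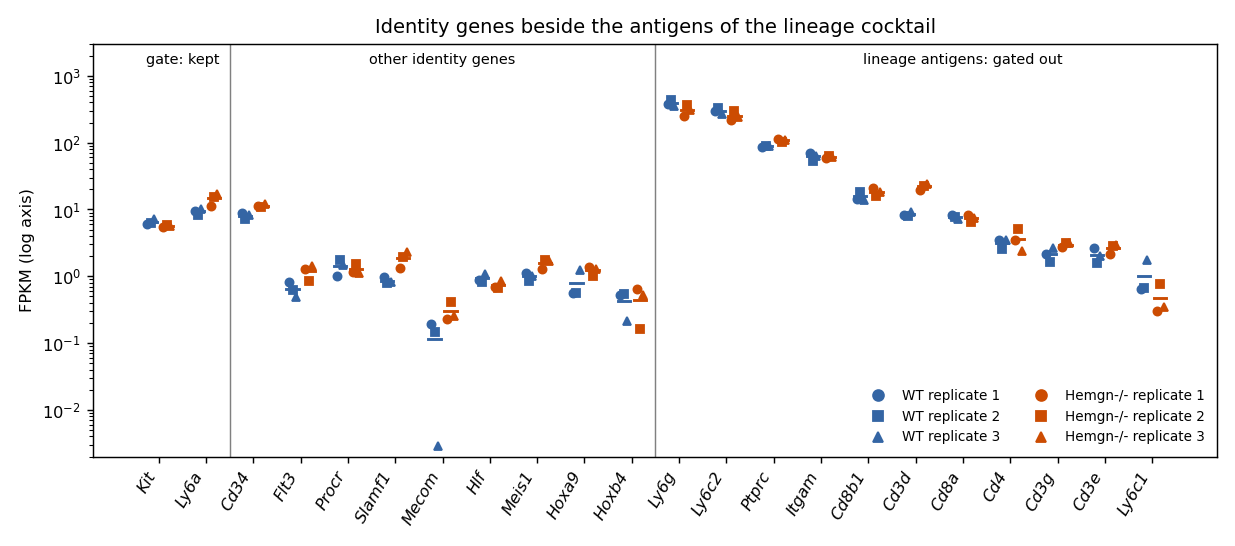
FPKM on a log axis of Kit and Ly6a (Sca-1), the other 9 identity genes and 11 of the 13 genes of the lineage cocktail antigens, with 1 point per library (blue, WT; orange, Hemgn-/-) and short lines for group means. Ly6g, Ly6c2, Ptprc, Itgam, Cd8b1 and Cd3d lie above Kit in all 6 libraries, whereas most identity genes lie near 1 FPKM.

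The 10 genes together summed to 19.7 to 21.8 FPKM in WT against 24.9 to 27.0 FPKM in Hemgn-/- libraries. This was 0.0053% to 0.0058% of the FPKM total in WT and 0.007% to 0.0078% in Hemgn-/- libraries. Kit and Cd34 alone made up 65.0% to 71.1% of the sum. The 14 neutrophil markers, by contrast, took 20.8% to 22.2% of the FPKM total in WT and 15% to 15.9% in Hemgn-/- libraries. Ngp, a granule protein of immature neutrophils, lay between 26488 and 46692 FPKM. The 11 B cell markers took 0.684% to 0.719% in WT and 0.983% to 1.0% in Hemgn-/- libraries. The 10 basophil and mast cell markers, several of which belong to cells that also carry c-Kit, summed to 789 to 862 FPKM in WT against 820 to 864 FPKM in Hemgn-/- libraries. In a mixed sample, fewer cells of a type and less RNA per cell cannot be told apart, and the cells from which the identity transcripts came cannot be read from these values.

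**Figure D2:**
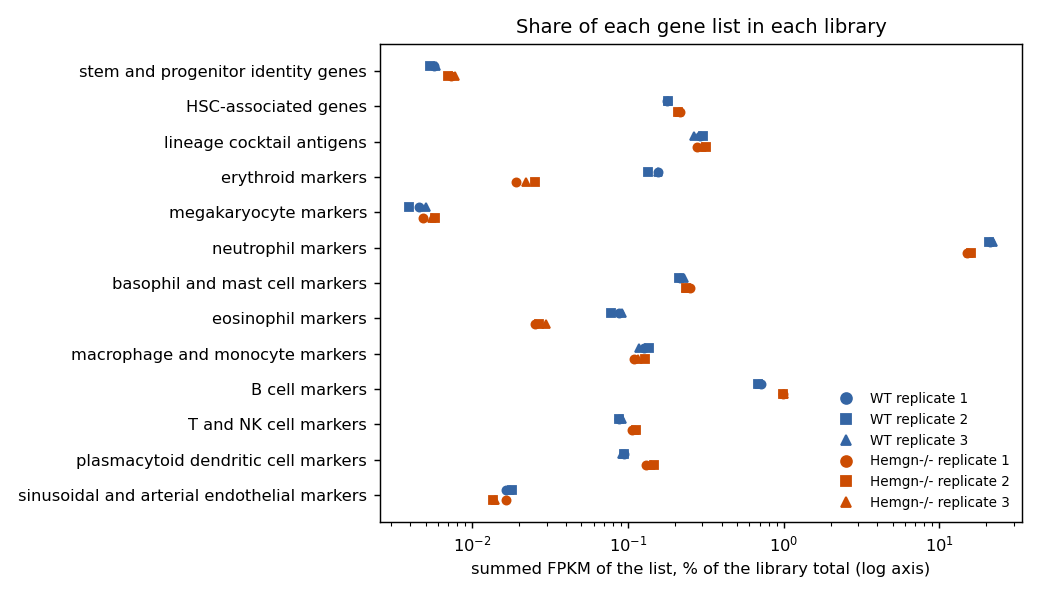
Summed FPKM of gene lists as a percentage of the library's FPKM total (log axis), with 1 point per library. The 10 identity genes take at most 0.0078% in each library, near the megakaryocyte markers and far below the neutrophil and B cell markers.

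Within the 10 genes, the order of levels was set by Cd34 and Kit. In WT, Cd34 had a mean of 8.08 FPKM and Kit of 6.58 FPKM, and Cd34 was above Kit in 3 of 3 libraries although their ranges met. Procr followed at 1.4 FPKM, and Meis1, Hlf, Slamf1, Hoxa9 and Flt3 lay between 1.00 and 0.643 FPKM with ranges that overlapped from each gene to the next. Hoxb4 and Mecom were lowest, at 0.429 and 0.114 FPKM. In Hemgn-/- libraries Slamf1 and Meis1 came next, at 1.87 and 1.57 FPKM, ahead of Procr at 1.27 FPKM, and the ranges of these neighbours overlapped too. Mecom and Hoxb4 were again the lowest, and neither passed 1 FPKM in any library. Relative to all genes of the table, Cd34 stood between percentiles 80.2 and 85.3 of a library, Kit between 75.6 and 80.3, and Mecom between 22.7 and 42.4.

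Whether loss of Hemgn changed these genes was asked by comparing the 3 Hemgn-/- with the 3 WT libraries. A single gene of 10 passed the test, Cd34, which rose in Hemgn-/- cells. Slamf1 had a larger log2 fold change than Cd34 but missed the threshold after adjustment. Kit, Procr and Hlf had lower means in Hemgn-/- cells and did not pass. Fold changes are Hemgn-/- minus WT on the log2(FPKM + 1) scale, where the added 1 shrinks the differences of genes near or below 1 FPKM, with limma's test and Benjamini-Hochberg adjustment over 13739 genes above 1 FPKM in at least 1 library. Of all genes tested, 6.46% were called at an adjusted p under 0.05, 4.37% higher and 2.09% lower in Hemgn-/-. Among the 8 identity genes tested, 1 was called higher and 0 lower, and at an unadjusted p under 0.05 limma gave 2 higher and 0 lower, where 15% of all genes tested were higher and 6.46% lower at that threshold. Mecom and Hoxb4 were below the filter. Slamf1, which is among the 2, and Flt3 passed the filter only through Hemgn-/- libraries, and Hlf only through a WT library. For such genes the filter favours the direction of the group that let them in, which limits what these counts can show. All 3 Hemgn-/- libraries lay above all 3 WT libraries for 5 of the 10 genes, against 12.7% of all genes in the table, and below them for 1 of the 10, against 5.8% of all genes.

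**Figure D3:**
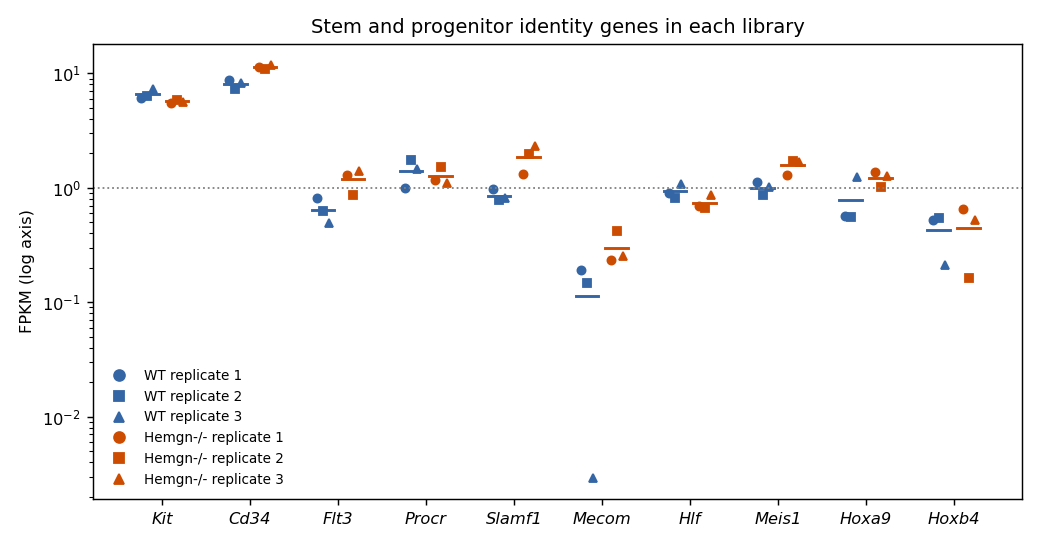
FPKM on a log axis of the 10 identity genes, with 1 point per library (blue, WT; orange, Hemgn-/-), short lines for group means and a dotted line at 1 FPKM, the filter of the test. Cd34, Slamf1, Flt3, Meis1 and Mecom are higher in every Hemgn-/- library than in any WT library, and the lowest Mecom point is WT replicate 3.

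Cd34 (ENSMUSG00000016494, chr1:194938819-194961279 of GRCm38, plus strand) encodes a sialomucin of progenitors and endothelium. It was at 8.80, 7.23 and 8.21 FPKM in WT replicates 1 to 3 and at 11.4, 10.8 and 11.9 FPKM in Hemgn-/- replicates 1 to 3, from 1348 to 2502 fragments a library. The groups did not overlap, and the spread within each was small. Its log2 fold change was 0.45 (SE 0.11, 95% interval 0.21 to 0.69, adjusted p = 0.0427 by limma). The call depended on all 6 libraries, since leaving out any 1 of them gave an adjusted p between 0.0666 and 0.153 by limma with Benjamini-Hochberg adjustment. It was also lost after median-ratio scaling (adjusted p = 0.1) and quantile normalization (0.0957), with no filter (0.0765) and with the replicate block (0.0755), and kept after rescaling to equal totals (0.0212). The log2 fold change stayed between 0.35 and 0.53 over all 13 alternatives. An antisense gene, Gm16897, shares up to 148 bases of exon with Cd34 and reached 0.731 FPKM at most. Whether strand was used in counting is not given in the sources used here.

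Kit (ENSMUSG00000005672, chr5:75574916-75656722, plus strand) had 6.14, 6.36 and 7.24 FPKM in WT against 5.50, 5.90 and 5.65 FPKM in Hemgn-/- libraries. All Hemgn-/- values lay below all WT values, by a margin smaller than the WT range. The log2 fold change was -0.18 (SE 0.11, 95% interval -0.43 to 0.07, adjusted p = 0.398 by limma). It did not pass under any alternative, with adjusted p-values from 0.227 to 0.653. The ratio of Cd34 to Kit within a library does not depend on the scaling between libraries. Cd34 was 1.43, 1.14 and 1.13 times Kit in WT and 2.07, 1.84 and 2.1 times Kit in Hemgn-/- libraries. Ly6a was 1.57, 1.30 and 1.41 times Kit in WT and 2.07, 2.60 and 3.06 times Kit in Hemgn-/- libraries. Neither ratio overlapped between the groups. Both ratios were formed after the values had been seen and were not tested.

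Ly6a itself, at 9.64, 8.27 and 10.2 FPKM in WT against 11.4, 15.4 and 17.3 FPKM in Hemgn-/- libraries, had a log2 fold change of 0.58 (SE 0.15, adjusted p = 0.0642 by limma). The gene of the gate's Sca-1 antigen was therefore higher in each Hemgn-/- library without passing the threshold, and it passed without Hemgn-/- replicate 1 (adjusted p = 0.0214 by limma) and after rescaling to equal totals (0.0289). Hemgn, the disrupted gene, fell by 1.37 on the log2 scale (SE 0.23, adjusted p = 0.0114 by limma), from 4.43 ± 1.36 to 1.09 ± 0.449 FPKM (SD, n = 3 each), with an adjusted p of 0.0503 without WT replicate 3 by the same limma fit. Hemgn is also an erythroid gene, and several erythroid transcripts fell too, as given below.

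Flt3 (ENSMUSG00000042817, chr5:147330741-147400489, minus strand), the receptor of multipotent and lymphoid-primed progenitors, was at 0.807, 0.626 and 0.497 FPKM in WT against 1.30, 0.860 and 1.41 FPKM in Hemgn-/- libraries. The groups did not overlap, but WT replicate 1 and Hemgn-/- replicate 2 nearly met. The log2 fold change was 0.41 (SE 0.21, 95% interval -0.06 to 0.88, adjusted p = 0.303 by limma). Flt3 passed the filter only through 2 Hemgn-/- libraries. On the fragments themselves, 302 in all of WT and 610 in all of Hemgn-/-, limma's voom gave a log2 fold change of 0.90 (adjusted p = 0.112).

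Procr (ENSMUSG00000027611, chr2:155751117-155755471, plus strand) encodes the endothelial protein C receptor. It was at 0.999, 1.75 and 1.46 FPKM in WT against 1.17, 1.52 and 1.11 FPKM in Hemgn-/- libraries, and the groups overlapped fully. Its log2 fold change of -0.08 (SE 0.19, 95% interval -0.52 to 0.36, adjusted p = 0.856 by limma) turned to 0.03 without WT replicate 2 and was -0.14 by voom. Its transcript is the shortest of the 10, so that each value rested on only 48 to 91 fragments.

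Slamf1 (ENSMUSG00000015316, chr1:171767127-171801184, plus strand), the gene of CD150, was at 0.975, 0.781 and 0.809 FPKM in WT against 1.31, 1.97 and 2.33 FPKM in Hemgn-/- libraries. The WT values lay close together, and the Hemgn-/- values were higher and more spread. The log2 fold change was 0.62 (SE 0.20, 95% interval 0.17 to 1.06, unadjusted p = 0.0127, adjusted p = 0.112 by limma). At the study's cutoffs of p under 0.05 and 1.5-fold, applied here to limma on log2(FPKM + 1), Slamf1 was the single identity gene past them. Of all genes tested, 4.1% were past them in this direction, which differs from the study's own count. The fragment counts were 123 to 142 in WT and 222 to 415 in Hemgn-/- libraries, and voom on them called the gene (5.35% of all genes were called higher by voom), with a log2 fold change of 1.10 (SE 0.29, adjusted p = 0.0391). Slamf1 passed the filter only through the Hemgn-/- libraries.

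**Figure D4:**
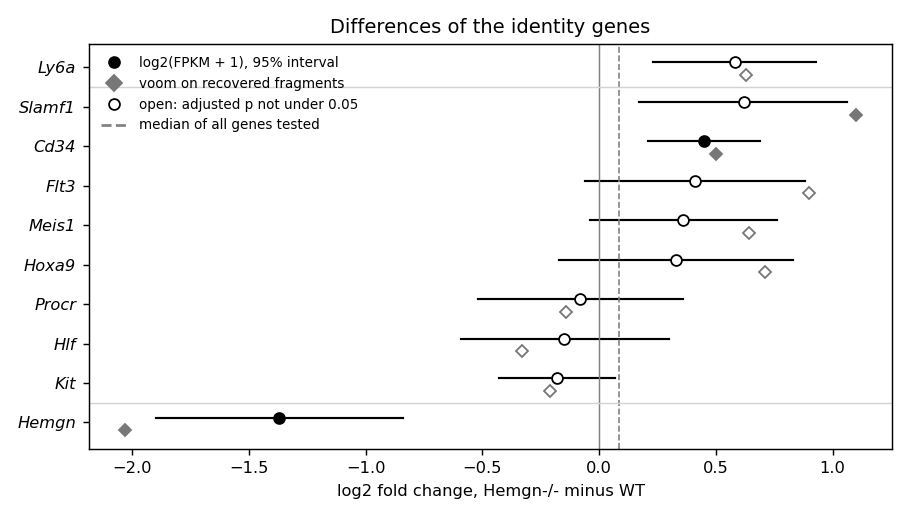
Log2 fold changes (Hemgn-/- minus WT) of the 8 identity genes tested, with Ly6a and Hemgn. Circles with 95% intervals are from limma on log2(FPKM + 1) and diamonds from voom on fragments; filled symbols have an adjusted p under 0.05 and the dashed line is the median of all genes tested, 0.087. Cd34 is filled in both fits and Slamf1 in voom alone.

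Of the transcription factors, Meis1, Hoxa9 and Hlf were tested, and Mecom and Hoxb4 were below the filter. None of those tested was called in either direction, with limma or with voom, and 0 had an unadjusted p under 0.05 with limma. Over all genes tested, limma called 4.37% higher and 2.09% lower. With an unadjusted p under 0.05 these shares were 15% and 6.46%, so that a count of 0 among so few genes says little. Meis1 (ENSMUSG00000020160, chr11:18879817-19018985, minus strand), a cofactor of HOX proteins, was at 1.13, 0.864 and 1.02 FPKM in WT against 1.30, 1.73 and 1.69 FPKM in Hemgn-/- libraries. The groups did not overlap, and the log2 fold change was 0.36 (SE 0.18, 95% interval -0.04 to 0.76, adjusted p = 0.288 by limma), or 0.64 by voom (adjusted p = 0.0896). Hoxa9 (ENSMUSG00000038227, chr6:52223100-52231089, minus strand) was at 0.568, 0.553 and 1.23 FPKM in WT against 1.37, 1.02 and 1.28 FPKM in Hemgn-/- libraries. WT replicate 3 lay within the Hemgn-/- range while the other WT libraries lay below it, and the log2 fold change was 0.33 (SE 0.22, adjusted p = 0.433 by limma), or 0.71 by voom (adjusted p = 0.238). Hlf (ENSMUSG00000003949, chr11:90336536-90390895, minus strand), a PAR bZIP factor of HSCs, was at 0.892, 0.819 and 1.08 FPKM in WT against 0.693, 0.669 and 0.860 FPKM in Hemgn-/- libraries. The groups overlapped, the log2 fold change was -0.15 (SE 0.20, adjusted p = 0.702 by limma), or -0.33 by voom (adjusted p = 0.52), and the gene passed the filter through WT replicate 3 alone.

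Mecom and Hoxb4 were near the limit of what these libraries could measure. Mecom (ENSMUSG00000027684, chr3:29951296-30548008, minus strand), the zinc finger factor also called EVI1, had 56, 47 and 1 fragments in WT against 79, 135 and 91 fragments in Hemgn-/- libraries. These counts were 0.190, 0.148 and 0.0029 FPKM in WT against 0.232, 0.415 and 0.253 FPKM in Hemgn-/- libraries. WT replicate 3 stood apart, since its single fragment allows at most 0.0162 FPKM (upper bound of the exact 95% Poisson interval), below the lower bound of 0.11 FPKM in WT replicate 2. Such intervals cover counting error alone, since amplified fragments are not independent molecules. Hoxb4 (ENSMUSG00000038692, chr11:96318267-96321638, plus strand) had 32, 36 and 15 fragments in WT against 46, 11 and 39 fragments in Hemgn-/- libraries, and the groups overlapped fully. With no filter on low values, limma gave log2 fold changes of 0.22 for Mecom (SE 0.097, adjusted p = 0.385) and 0.01 for Hoxb4 (SE 0.18, adjusted p = 0.982). In that fit, which holds all 10 genes, 7 had a positive and 3 a negative log2 fold change with a median of 0.28, beside a median of 0.03 and 59.3% positive over all genes.

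Transcripts of other cell types moved between the same libraries. Rises and falls counted here are calls by limma, where 4.37% of all genes tested were called higher and 2.09% lower. At an unadjusted p under 0.05 these shares were 15% and 6.46%. Voom called 734 of 13723 genes higher and 331 lower. The sum of the 14 erythroid markers was 500 to 586 FPKM in WT against 65.8 to 90.1 FPKM in Hemgn-/- libraries, and 5 of the 10 tested fell. Most of the WT sum was Hba-a1 and Hbb-bs, at means of 296 and 171 FPKM in WT against 17.7 and 10.7 FPKM in Hemgn-/- libraries. Car2, the third highest, was at 34.1 and 35.0 FPKM, and 2 of the 10 tested had a positive log2 fold change. The 8 eosinophil markers summed to 287 to 343 FPKM in WT against 87.4 to 103 FPKM in Hemgn-/- libraries, and 3 of 8 fell. The 11 macrophage and monocyte markers summed to 444 to 504 FPKM in WT against 374 to 462 FPKM in Hemgn-/- libraries, with 2 rising and 2 falling. Ly6c2, also counted among the lineage antigens, made up most of this sum, at means of 297 FPKM in WT and 251 FPKM in Hemgn-/- libraries. The 11 plasmacytoid dendritic cell markers, a cell type that expresses Flt3, summed to 345 to 348 FPKM in WT against 449 to 524 FPKM in Hemgn-/- libraries, with 5 of 10 tested rising. The B cell markers summed to 2543 to 2657 FPKM in WT against 3379 to 3551 FPKM in Hemgn-/- libraries, and 6 of 11 rose. The 12 T and NK cell markers summed to 324 to 342 FPKM in WT against 362 to 405 FPKM in Hemgn-/- libraries, and 3 of 12 rose. The 17 endothelial markers, which belong to cells that carry Cd34 and Procr, summed to 60.7 to 66.5 FPKM in WT against 48.2 to 56.5 FPKM in Hemgn-/- libraries, and 0 of 13 tested passed by limma, with 1 higher and 3 lower at an unadjusted p under 0.05 and 3 called lower by voom. Of the basophil and mast cell markers 0 of 9 tested passed by limma, with 3 higher and 0 lower at an unadjusted p under 0.05, and voom called 0. No list of other cell types had a gene at 0 in all 6 libraries. The same holds for all 24965 genes of the table, so it says nothing about which cells were present. The part of these cells in the differences of Cd34, Slamf1 and Flt3 was not tested.

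The windows before the transcription starts are shown for the 4 tested genes whose Hemgn-/- libraries all lay above the WT libraries, so that the genes can be compared as sequence. They were read from RefSeq (GRCm38.p6) as the 250 bases before each start, 5′ to 3′ on the gene's strand. They lie at chr1:194938571-194938820 for Cd34 and chr1:171766882-171767131 for Slamf1, both on the plus strand, and at chr5:147400490-147400739 for Flt3 and chr11:19018970-19019219 for Meis1, both on the minus strand. Capitals mark the single match found, ACTTCC, which is GGAAGT on the opposite strand and the core of sites for ETS factors.
Cd34: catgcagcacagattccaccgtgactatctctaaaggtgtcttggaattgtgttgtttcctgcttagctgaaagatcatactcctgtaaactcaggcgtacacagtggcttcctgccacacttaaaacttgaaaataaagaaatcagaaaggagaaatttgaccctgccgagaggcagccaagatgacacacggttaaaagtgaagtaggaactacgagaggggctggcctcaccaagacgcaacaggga
Slamf1: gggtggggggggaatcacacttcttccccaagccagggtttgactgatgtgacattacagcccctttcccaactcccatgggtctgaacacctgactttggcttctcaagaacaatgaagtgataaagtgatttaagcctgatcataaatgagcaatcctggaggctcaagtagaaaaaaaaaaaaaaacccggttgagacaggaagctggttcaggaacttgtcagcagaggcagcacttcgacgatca
Flt3: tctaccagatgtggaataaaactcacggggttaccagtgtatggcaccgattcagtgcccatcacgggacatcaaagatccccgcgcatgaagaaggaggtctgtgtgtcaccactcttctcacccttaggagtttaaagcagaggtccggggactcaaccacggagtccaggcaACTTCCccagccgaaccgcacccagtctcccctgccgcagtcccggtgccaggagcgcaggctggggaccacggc
Meis1: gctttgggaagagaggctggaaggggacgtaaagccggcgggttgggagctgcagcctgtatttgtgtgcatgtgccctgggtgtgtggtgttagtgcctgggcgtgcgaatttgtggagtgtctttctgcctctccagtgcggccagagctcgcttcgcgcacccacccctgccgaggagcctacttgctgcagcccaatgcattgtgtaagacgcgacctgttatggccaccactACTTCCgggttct

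A set of short motifs was searched on both strands in these windows for all 10 genes and for all 32851 windows of the same length. Kit and Mecom have more than 1 window, and a gene was counted if any of its windows held the motif. The shares are per window, so they are not the same measure as the counts per gene. GGAAGT was held by Flt3 and Meis1, 2 of the 10 genes, and by 19.7% of all windows. GATAAG, the GATA motif, was in none of the 10 genes and in 6.55% of all windows, and TTCNNNGAA, the STAT motif, was in none of the 10 and in 7.02%. CAGCTG, an E-box, was held by Procr alone and by 13% of all windows. TGACAG, the motif of MEIS proteins, was held by Mecom and by 15.9% of all windows, and GAAANNGAA, the motif of interferon regulatory factors, by Mecom and Hoxa9 and by 7.13%. The matches of Mecom to TGACAG and to GAAANNGAA lie in different windows. No matches of different motifs overlapped in the windows of the 10 genes. The windows of Cd34 and Slamf1 held none of these letters, and Kit, Hlf and Hoxb4 held none either.

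To see whether the wider stem and progenitor programme moved, 5 further lists of genes were counted in the same fit. Over all genes tested, limma called 4.37% higher and 2.09% lower. At an unadjusted p under 0.05 the shares were 15% higher and 6.46% lower. Voom called 734 of 13723 genes higher and 331 lower. The counts of each list stand beside these values. Of 29 HSC-associated genes, 20 were tested, 1 rose and 0 fell by limma, with 3 higher and 3 lower at an unadjusted p under 0.05 and 0 lower by voom. The riser was Egr1, an immediate-early transcription factor that responds to many stimuli, at 130, 135 and 134 FPKM in WT against 245, 246 and 239 FPKM in Hemgn-/- libraries (log2 fold change 0.87, adjusted p = 0.000105 by limma). Egr1 was called under all 13 alternatives. Cd9, a tetraspanin of many blood cells and the highest gene of the list, was at 444 ± 4.80 FPKM in WT against 410 ± 3.66 FPKM in Hemgn-/- libraries (SD, n = 3 each; adjusted p = 0.233 by limma). The third highest, Itgb3, had a log2 fold change of 0.20 (adjusted p = 0.225 by limma). Genes more restricted to HSCs were low, with Fgd5, Vwf, Ndn, Prdm16 and Hoxb5 under 1 FPKM in all 6 libraries. The median log2 fold change of the 29 genes with no filter was 0.04, beside 0.03 over all genes.

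**Figure D5:**
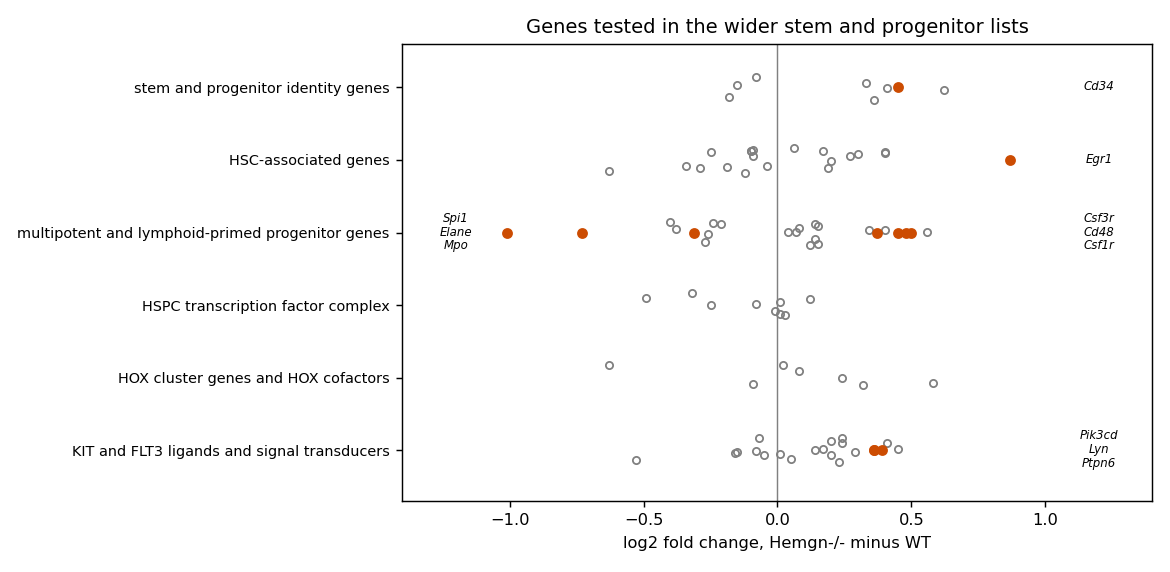
Log2 fold changes (Hemgn-/- minus WT) of the genes tested in the identity list and the 5 wider lists, with 1 point per gene. Filled points had an adjusted p under 0.05 and most are named at the left (lower) or right (higher); the HSPC transcription factor complex and the HOX list hold none.

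The 24 multipotent and lymphoid-primed progenitor genes were all tested, with 4 called higher and 3 lower by limma, beside 4.37% and 2.09% of all genes. Csf1r and Csf3r, the receptors for macrophage and granulocyte colony-stimulating factors, rose with log2 fold changes of 0.50 and 0.37. Cd48, a SLAM family protein absent from long-term HSCs, rose by 0.48 on the log2 scale (adjusted p = 0.0332 by limma). The genes that fell were Elane (log2 fold change -0.73), Mpo (-0.31) and Spi1 (-1.01), which encode neutrophil elastase, myeloperoxidase and the myeloid factor PU.1. Elane and Mpo are also on the neutrophil list, of whose 14 genes 1 rose and 5 fell. The genes named here are expressed by mature myeloid or lymphoid cells or their precursors as well as by progenitors. Spi1 was at 335 FPKM in WT replicate 2, beside 179 and 220 FPKM in the other WT libraries. Its call was lost without WT replicate 2 (adjusted p = 0.0627 by limma), WT replicate 3 (0.0923), Hemgn-/- replicate 2 (0.11) or Hemgn-/- replicate 3 (0.138) and with no filter (0.151). Elane kept its call in all 13 alternatives, whereas the call was lost in 2 of 13 for Csf1r, 4 for Csf3r, 7 for Mpo and 11 for Cd48, each with the same direction. The number of genes called higher was 1 without Hemgn-/- replicate 3 and 2 without WT replicate 1, WT replicate 3 or Hemgn-/- replicate 2. The number called lower was 1 without Hemgn-/- replicate 2 or replicate 3.

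The HSPC transcription factor complex, which includes the partners of TAL1 at stem cell enhancers, had 0 of 9 tested genes called in either direction by limma, with 0 higher and 2 lower at an unadjusted p under 0.05, and voom called 0. Fli1 was at 91.7 ± 1.55 FPKM in WT against 93.9 ± 4.47 FPKM in Hemgn-/- libraries, Lyl1 at 71.4 ± 3.69 and 77.8 ± 7.19 FPKM, and Tcf3 at 30.6 ± 10.8 and 20.7 ± 0.987 FPKM (SD, n = 3 each). These high levels belong to genes that mature blood cells use too, and Tal1 itself was at 0.166 to 0.571 FPKM and below the filter. Of 20 HOX cluster genes and cofactors in the table, 13 stayed at or below 1 FPKM in all libraries. The 7 tested gave 0 calls by limma, with 1 higher and 1 lower at an unadjusted p under 0.05, and voom called 1 lower. Among the remaining cluster genes, Hoxa7 was the single gene above 1 FPKM, at 0.401 to 2.1 FPKM (adjusted p = 0.54 by limma). The cofactors were higher than the HOX genes, with Pknox1 at 13 ± 1.56 FPKM in WT against 15.5 ± 1.45 FPKM in Hemgn-/- libraries (SD, n = 3 each) and Pbx2 at 3.11 to 6.11 FPKM.

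Downstream of KIT and FLT3, 3 of 21 tested ligand and signal transducer genes rose and 0 fell by limma, where 4.37% of all genes were called higher, with 6 higher and 1 lower at an unadjusted p under 0.05 and 0 lower by voom. Ptpn6, the phosphatase SHP-1 that restrains KIT signaling, rose from 245 ± 5.01 to 322 ± 15.4 FPKM (SD, n = 3 each; log2 fold change 0.39, adjusted p = 0.00737 by limma). Lyn, a SRC family kinase, and Pik3cd, the catalytic subunit p110δ, rose with log2 fold changes of 0.36 each (adjusted p = 0.0253 and 0.0392 by limma). All of these are leukocyte genes at levels far above those of Kit and Flt3 in the same libraries. Plcg2, the third highest of the list, had a log2 fold change of 0.20 (adjusted p = 0.164 by limma). The ligand genes were low, with Kitl at 0.392 to 0.750 FPKM and Flt3l at 2.13 to 3.15 FPKM. The count of 3 fell to 1 without WT replicate 1, WT replicate 3, Hemgn-/- replicate 2 or Hemgn-/- replicate 3, and to 1 after median-ratio or quantile scaling.

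Last, the gene whose log2(FPKM + 1) over the 6 libraries was most like that of each tested identity gene was found among genes with a mean of at least 5 FPKM. With 6 points and 6291 or 6292 genes to choose from, a high Pearson r has little weight and was given no p. The nearest were Usp18 for Cd34 (r = 0.9980), Gucd1 for Slamf1 (0.9961), Adar for Meis1 (0.9953) and Prpf18 for Flt3 (0.9944). They were Pdp2 for Hoxa9 (0.9889), Fcf1 for Kit (0.9792), Tmem38b for Hlf (0.9690) and Usp25 for Procr (0.9392). The number of genes with an r above 0.95 was 185 for Cd34, 99 for Meis1, 89 for Slamf1 and 55 for Flt3. It was 22 for Hoxa9, 14 for Kit, 13 for Hlf and 0 for Procr. Libraries of 1 genotype share a donor genotype and the mature cell content given above, which these correlations include.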

How the data were processed

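RNA-seq libraries of donor cells from 3 WT and 3 Hemgn-/- transplants were grouped by the genotype in the labels. The authors deposited FPKM values for 24965 genes, made from whole fragments per gene. The submitters' processing notes name GRCm38, Bowtie2 2.2.3, HISAT2 2.1.0, TopHat2 and HTSeq 0.6.0, with no role or order. The labels name another library kit (TruSeq) than the study's methods (Smart-Seq2, an amplified cDNA), and how strand was treated is not given in the sources used here. Of the genes, 24921 matched GENCODE M21 by identifier, which gave symbols, coordinates and exon lengths, and the steps between low values gave the depth, with 95.2% to 95.6% of low values whole within 0.05 fragments. A fragment on 1 kb was worth 0.0346 to 0.0423 FPKM. Sample columns left unmapped numbered 0.

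Genes above 1 FPKM in at least 1 library (13739) were compared as log2(FPKM + 1) with limma 3.58.1 in R 4.3.3 (lmFit, eBayes with a trend, two-sided, Benjamini-Hochberg over all genes tested), with all 6 libraries and no covariate. The method was tested on simulated data. Exact permutation of 3 against 3 libraries cannot give a p below 0.1. Libraries of the same group differed beyond counting error (chi-square per gene 17.5 to 35.3). The identity genes, the wider lists and the motifs were chosen with earlier results of these data known. Named genes were all identity genes, Hemgn, Ly6a, the lineage antigens, the called and the 3 highest genes of each wider list, the 2 highest of each other list where its level is described, and the nearest gene by Pearson r. Genes named for a low level (Fgd5, Vwf, Ndn, Prdm16, Hoxb5, Hoxa7, Tal1, Kitl, Flt3l) were added after their values were seen. Some genes of the HOX and HSC lists were not analysed here, and some genes that the naming rule covers are counted in their lists but not reported here. Python 3.11.15 with pandas 2.3.3, numpy 2.4.6, scipy 1.17.1 and matplotlib 3.10.9 did the rest. Alternatives were a pseudocount of 0.1, no filter, median-ratio, equal-total and quantile scaling, a replicate block, voom on recovered fragments, and each library left out.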

Additional observations from a re-analysis of the deposited data

How the results depend on the processing

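Of 103 alternative values for the 8 tested identity genes, 91 kept their direction and side of the threshold, 10 lost the call of Cd34, 1 gained a call (Slamf1 by voom) and 1 changed sign (Procr, with log2 fold changes from -0.203 to 0.028 when single libraries were left out). Hlf could not be tested without WT replicate 3. The number of identity genes called higher was 1, and it was 0 with no filter, after median-ratio scaling, after quantile normalization and with the replicate block, 2 with voom, and 0 to 0 with each library left out in turn. The number called lower was 0 throughout. Of the HSC-associated genes 1 was called lower after median-ratio scaling. For the progenitor list, genes called higher numbered 2 after median-ratio scaling and 1 to 4 with libraries left out, and genes called lower numbered 1 with no filter and 1 to 3 with libraries left out. In the HOX list voom called 1 lower. The count for KIT and FLT3 transducers was 1 with no filter, after median-ratio scaling and after quantile normalization, and 1 to 2 with libraries left out. The 8 lineage antigens with a mean above Kit were 8 on the TPM scale too. The cause of these changes was not tested.

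Over all genes, 67.6% of calls were higher in Hemgn-/-, against 46.9% after median-ratio scaling, 51.5% after quantile normalization and 81.7% after rescaling to equal totals. The 887 calls became 466 with no filter and, with single libraries left out, 373 to 688. Deviations of same-numbered libraries had correlations of -0.043, -0.009 and 0.011, so that no shared effect of the number was visible. Whether same-numbered transplants were done together cannot be told from this. The replicate block gave 636 calls. Depth limited Mecom, Hoxb4 and Procr most, with under 140 fragments in every library. Other identity genes were under it in single libraries, with lowest counts of 85 for Flt3, 75 for Hoxa9, 117 for Hlf and 123 for Slamf1.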
